A study of Homo sapiens with 6 samples.

Results

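The genes of the cytosolic ribosomal proteins were followed in K562 cells, an established human leukaemia line (chronic myelogenous leukaemia) that expresses erythroid genes. The treated group received 20 µM 3FM-dC plus 2 mM THU for 24 h (n = 3 libraries). The control group received the same amount of DMSO, the solvent of both compounds, for 24 h (n = 3 libraries). All cells were at passages 13 to 16 in medium with 10% serum. The series asked how 3FM-dC alters gene expression, and because only the treated group had THU what each compound did cannot be told apart. Members were the rows whose symbol names a ribosomal protein of the large subunit (RPL and RPLP symbols) or of the small subunit (RPS symbols, RPSA and FAU), without the RPS6K kinases and the pseudogenes. This gave 81 of the 23710 gene symbols, 49 of the large and 32 of the small subunit. The rule goes by symbol and uses no measured value.

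The cytosolic ribosome has a large subunit, which forms peptide bonds, and a small subunit, which reads the messenger RNA. Its proteins are needed in fixed proportion to the ribosomal RNAs, and an unassembled ribosomal protein is usually degraded. Most of their mRNAs start with a terminal oligopyrimidine (TOP) tract, a C followed by an unbroken run of C and T bases, through which mTORC1 and the RNA-binding protein LARP1 control their translation and stability. Defects in single members such as RPS19, RPS26 and RPL11 cause Diamond-Blackfan anaemia, a failure of red cell production.

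The TOP tract was looked for at the annotated starts of RefSeq promoters (GRCh38.p14), as a C at the first transcribed base followed by at least 4 bases that are each C or T, on the strand of the gene. The table held 64 of the 81 members, and 47 of these (73.4%) had such a start at 1 or more annotated positions, against 5.14% of all 27305 genes of the table. The median tract among these 47 was 8 bases long. With the C allowed to lie up to 5 bases before or after the annotated start, 54 members (84.4%) and 25.2% of all genes had one. The windows below show members that rose or fell most and are in the table, each with 30 bases before the start and 20 from it, 5′ to 3′ on the strand of the gene. Capitals mark the tract where it begins at the start. The first 5 rose in treated cells.

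RPL12: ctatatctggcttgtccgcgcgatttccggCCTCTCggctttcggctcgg
RPL28: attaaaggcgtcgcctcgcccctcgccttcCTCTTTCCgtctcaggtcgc
RPLP0: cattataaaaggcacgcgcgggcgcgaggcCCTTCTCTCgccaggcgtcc
RPL41: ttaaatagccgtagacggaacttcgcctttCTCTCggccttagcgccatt
RPS27: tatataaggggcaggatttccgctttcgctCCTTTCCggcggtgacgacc

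These windows lie at chr9:127451387-127451436 (minus strand), chr19:55385902-55385951 (plus strand), chr12:120201092-120201141 (minus strand), chr12:56116603-56116652 (plus strand) and chr1:153990732-153990781 (plus strand), and each has the tract at its start. The next 6 fell in treated cells, and those of RPS26, RPS15 and RPL27 have no such tract at the annotated start.

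RPS26: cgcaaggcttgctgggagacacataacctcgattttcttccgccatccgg
RPS15: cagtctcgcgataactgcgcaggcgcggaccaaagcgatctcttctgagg
FAU: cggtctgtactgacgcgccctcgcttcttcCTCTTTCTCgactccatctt
RPS21: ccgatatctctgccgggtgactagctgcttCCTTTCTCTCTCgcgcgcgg
RPL27: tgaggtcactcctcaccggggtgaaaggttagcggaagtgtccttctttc
RPL11: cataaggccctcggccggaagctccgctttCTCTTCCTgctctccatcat

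They lie at chr12:56041888-56041937 (plus strand), chr19:1438366-1438415 (plus strand), chr11:65122115-65122164 (minus strand), chr20:62387073-62387122 (plus strand), chr17:42998389-42998438 (plus strand) and chr1:23691776-23691825 (plus strand). RPL11 has 2 annotated starts in the table and the one with the tract is shown. Among tested members, the 46 with a TOP start had a median log2 fold change of -0.036 (14 higher, 16 lower). The 16 without one had a median of -0.048 (1 higher, 4 lower). These medians were not compared by a test. Of all genes tested, 33.8% were higher and 32.7% lower. Among the 16 without a TOP start, RPL10A, RPL19, RPL3, RPL32, RPL4, RPS28 and RPS7 had a tract near the annotated start, within the wider window given above. The split thus depends on which start is annotated.

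Gene counts came to 18408826 to 22750278 per library. Levels are given as CPM, counts relative to a library size scaled by TMM, the trimmed mean of M-values of edgeR. The K562 markers were present, with HBE1, an embryonic globin, at 1324 ± 20.6 CPM in treated cells and 2665 ± 23.7 CPM in DMSO cells (SD, n = 3 each). Of these 10 markers 9 were lower in treated cells and TAL1 was called higher, while 32.7% of all genes were lower and 33.8% higher. The 10 markers summed to 3745 to 3911 CPM in treated and 7249 to 7429 CPM in DMSO cells. The groups overlapped for TAL1, at 196, 226 and 211 CPM in treated and 198, 200 and 188 CPM in DMSO cells. TAL1 did not pass in the DESeq2 test (adjusted p = 0.0562). Of the lymphoid markers CD2 and MS4A1 were at 0 in all libraries, 1 of 2 tested genes rose and the 6 genes summed to 9.57 to 11.3 CPM in treated and 7.87 to 8.98 CPM in DMSO cells. Of the fibroblast and endothelial markers CDH5 was at 0, COL1A2 and PECAM1 fell, COL1A1 was counted too little in DMSO cells to read its call (16, 32 and 32 counts in treated cells and 11, 6 and 3 counts in DMSO cells), and the 5 genes summed to 6.90 to 11.4 CPM in treated and 10.3 to 13.8 CPM in DMSO cells. Of the epithelial markers KRT5 was at 0 and EPCAM made up nearly all of the sum, 60.6 to 63.6 CPM in treated and 102 to 103 CPM in DMSO cells. The part of these shifts in the results below was not tested. In bulk libraries, fewer cells of a type and less RNA per cell cannot be told apart. The labels do not state whether the 3 replicates of a group were separate cultures, and the p-values therefore rest on a spread between libraries that may be technical.

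As a group the ribosomal protein mRNAs moved little. Of the 81 members 77 passed the count filter, and 70 of these 77 had a log2 fold change within 0.2 of 0, against 4051 of all 12339 genes tested. Their median log2 fold change, treated over DMSO, was -0.047, with an interquartile range from -0.10 to 0.050. Over all genes tested the median was 0.013 and the interquartile range -0.28 to 0.39. These genes were not matched to the members for level. Of the 77 tested members 76 had over 100 counts in every library, while the filter asked for a minimum count of 10. The part of count depth in the narrower spread of the members was not tested. In the edgeR quasi-likelihood fit, with p-values adjusted over all genes, 17 members rose (33.8% of all genes rose), 26 fell (32.7% of all genes fell) and 34 did not pass at an adjusted p under 0.05. In either direction these were 55.8% of the tested members, against 66.4% of all genes. The CPM of the groups did not overlap for 47 of the 77 members (61.0%), against 70% of all genes. The share of members that fell, 26 of 77, was near that background, and the share that rose, 17 of 77, was below it.

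**Figure D1:**
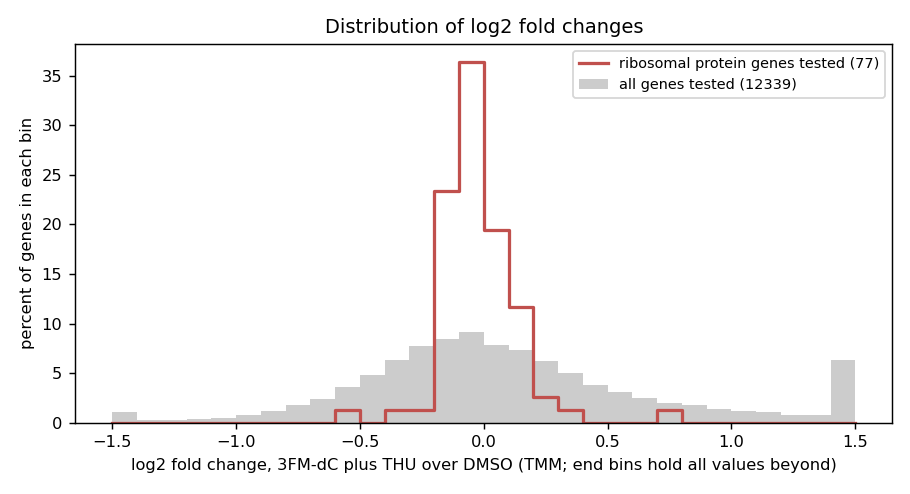
Distribution of log2 fold changes, 3FM-dC plus THU over DMSO with TMM scaling, in bins of 0.1 on the x axis, as percent of genes on the y axis. The line shows the 77 ribosomal protein genes tested and the grey bars all 12339 genes tested, and the members sit in a narrow peak just below 0 while the whole set spreads beyond 0.5 on both sides; the end bins hold all values beyond them.

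How the members moved as a group depended on the scale. Summed over the 81 symbols, their mRNAs took 7.17, 7.42 and 7.16 percent of gene counts in treated replicates 1, 2 and 3 and 6.77, 6.69 and 6.96 percent in DMSO replicates 1, 2 and 3, so the treated libraries were all higher. The mean share was 7.25% ± 0.152 in treated cells and 6.81% ± 0.138 in DMSO cells (SD, n = 3 each), a ratio of 1.07. After TMM scaling the sums were 69919, 71317 and 69529 CPM in treated and 69873, 69006 and 71830.0 CPM in DMSO cells, and the groups overlapped. TMM factors were 1.03 to 1.04 in the treated libraries and 0.969 to 0.970 in the DMSO libraries. With total counts as the scale 31 members rose (40.9% of all genes) and 6 fell (25.8%; 66.8% of all genes in either direction), and the median log2 fold change was 0.044 against 0.10 over all genes. Either scale gives relative abundance. The counts were also redistributed among the members: the 5 with the highest mean CPM (RPLP0, RPL4, RPS2, RPS18 and RPL10) took 17.3, 17.8 and 17.8 percent of the members' counts in treated and 16.1, 16.3 and 16.2 percent in DMSO cells, with no overlap. Per length, the members' share of TPM was 16.7, 17.2 and 16.7 percent in treated and 15.6, 15.5 and 15.9 percent in DMSO cells. The level of this share is uncertain, because annotated exonic lengths can exceed the main mRNA. For RPL37 the exonic length used was 7686 bases and the coding length 291 bases.

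The balance between the subunits did not move beyond the spread of the libraries. The summed counts of the large over the small subunit had a ratio of 1.427, 1.431 and 1.439 in treated and 1.431, 1.440 and 1.429 in DMSO cells, which overlap. As a share of gene counts the large subunit averaged 4.27% ± 0.0880 in treated and 4.01% ± 0.0760 in DMSO cells, and the small subunit 2.98% ± 0.0644 in treated and 2.80% ± 0.0619 in DMSO cells (SD, n = 3 each). Both subunits thus shared the higher fraction of counts. Of the 46 tested genes of the large subunit 10 rose (33.8% of all genes) and 16 fell (32.7%), with a median log2 fold change of -0.048. Of the 31 tested genes of the small subunit 7 rose (33.8% of all genes) and 10 fell (32.7%), with a median of -0.045. Scaled by total counts, 17 rose and 2 fell in the large subunit (median 0.042) and 14 rose and 4 fell in the small one (median 0.045). On that scale 40.9% of all genes rose and 25.8% fell.

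**Figure D2:**
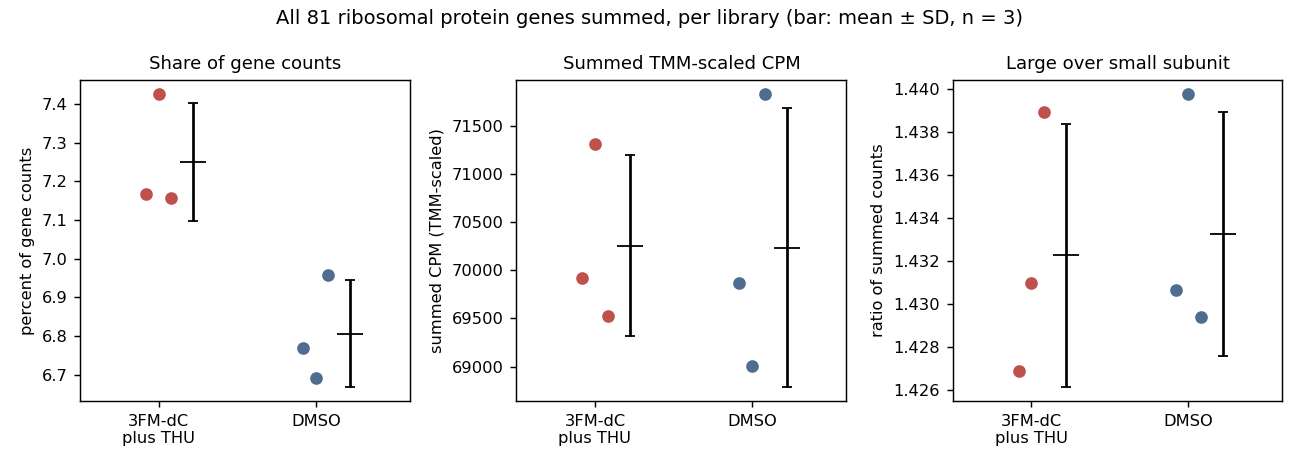
Summed level of all 81 ribosomal protein genes by library: percent of gene counts, summed TMM-scaled CPM, and the ratio of summed large to small subunit counts (y axes do not start at 0). Points are libraries and bars the mean ± SD of 3 libraries, and the groups separate only in the percent of gene counts, at 7.16 to 7.42 in treated and 6.69 to 6.96 in DMSO cells.

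Because the direction of small changes turned on the scale, each member was also scaled by the summed count of the members themselves, which shows change relative to the other ribosomal protein mRNAs. On that scale 16 members rose (33% of all genes) and 22 fell (32%; 65% of all genes in either direction). It lies close to TMM, as the members' summed TMM CPM had a treated over DMSO ratio of 1.0003. A call on all 3 scales therefore adds little to a call with both TMM and total counts. The DESeq2 test called the same 17 rises and 26 falls as edgeR with TMM, beside 31.7% of all genes higher and 31.7% lower (63.4% in either direction). Under all 3 scales, TMM, total counts and the members' own sum, 16 rose (10 of the large and 6 of the small subunit; 33% of all genes rose on all 3) and 6 fell (2 of the large and 4 of the small; 25.8% of all genes fell on all 3). In every alternative fit other than the minimum fold change, 14 of these rises (22.1% of all genes) and the 6 falls (24.2% of all genes) were called. Both counts of members lie below the shares over all genes. The falls on all 3 scales were RPS26, RPS15, FAU, RPS21, RPL27 and RPL11. The rises were RPL39L, RPL12, RPL28, RPLP0, RPL41, RPL13A, RPL10, RPL13, RPL26, RPL37A, RPS27, RPS18, RPS2, RPS19, RPS4X and RPS6. No member called with TMM was called in the opposite direction on either other scale.

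**Figure D3:**
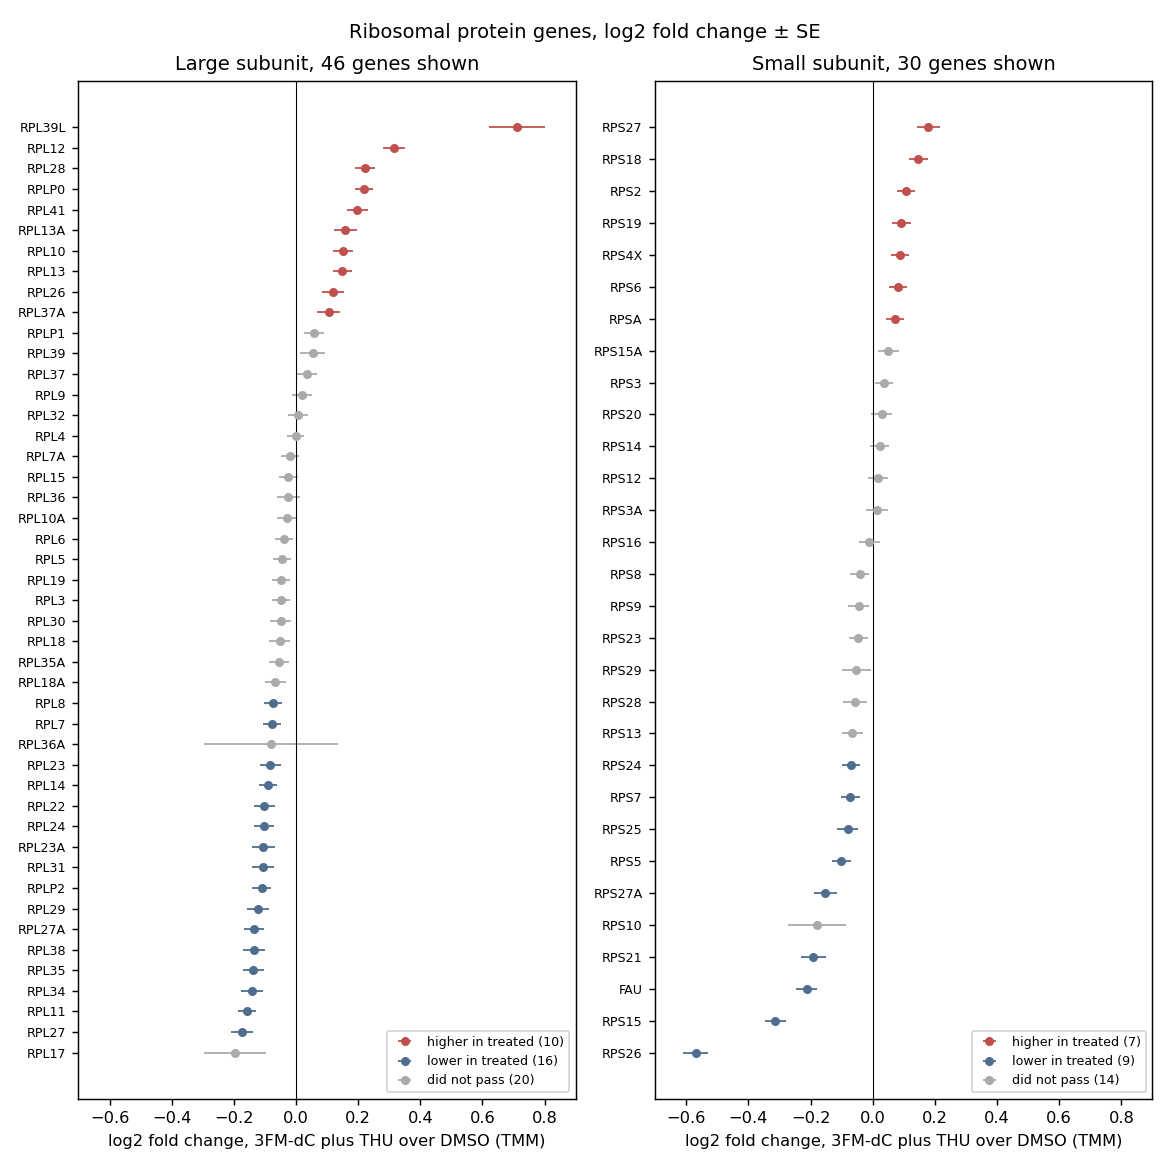
Log2 fold change ± SE, 3FM-dC plus THU over DMSO with TMM scaling (x axis), of 76 of the 77 tested ribosomal protein genes (y axis), large subunit left and small subunit right. Points are coloured by the edgeR call, and RPL39L is farthest up at 0.71 and RPS26 farthest down at -0.57.

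RPS26 fell more than any other tested member. It encodes a small subunit protein at the exit of the mRNA channel. The gene had 183, 174 and 169 CPM in treated cells and 261, 254 and 265 CPM in DMSO cells, and every treated library was below every DMSO library. Its mean was 175 ± 7.03 CPM in treated cells and 259.8 ± 5.71 CPM in DMSO cells (SD, n = 3 each), 1.48-fold lower in treated cells (log2 fold change -0.57, SE 0.040, edgeR adjusted p = 4.33e-13). The log2 fold change was -0.48 with total counts and -0.57 relative to the other members. The authors' deposited table gives RPS26 a ratio of 0.668 for its group B over its group A, which its headers do not name. The same deposited table of the authors gives RPL39L a ratio of 1.62 and RPL12 a ratio of 1.23.

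RPS15, a small subunit protein near the decoding centre that takes part in export of the subunit from the nucleus, had 462, 459.6 and 461 CPM in treated cells and 573, 551 and 593 CPM in DMSO cells. The treated libraries lay close together and below all DMSO libraries (log2 fold change -0.31, SE 0.034, edgeR adjusted p = 4.16e-09). FAU encodes RPS30 as a fusion with the ubiquitin-like protein FUBI. It had 389, 370.4 and 372 CPM in treated cells and 429.6, 436 and 445 CPM in DMSO cells, with no overlap (log2 fold change -0.21, SE 0.035, edgeR adjusted p = 4.49e-06). RPS21, another small subunit protein, had 372, 374 and 347 CPM in treated cells and 425, 392 and 430.4 CPM in DMSO cells. It was lower in each treated library (log2 fold change -0.19, SE 0.039, edgeR adjusted p = 0.000103). Of the 6 falls that held on all 3 scales 4 were in the small subunit, which has 31 of the 77 tested members. Over all genes 25.8% fell on all 3 scales. With TMM alone the subunits were alike, with 10 of 31 small and 16 of 46 large subunit genes lower.

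In the large subunit RPL27 and RPL11 fell on all 3 scales, and both were lower in every treated library. With total counts the edgeR adjusted p was 0.0284 for RPL27 and 0.0421 for RPL11. RPL27 had 612, 608 and 574 CPM in treated cells and 664, 664 and 695 CPM in DMSO cells (log2 fold change -0.17, SE 0.034, edgeR adjusted p = 5.82e-05). RPL11, which with RPL5 and 5S ribosomal RNA forms the particle that can bind MDM2, had 1167, 1176 and 1151 CPM in treated cells and 1315, 1268 and 1317 CPM in DMSO cells (log2 fold change -0.16, SE 0.030, edgeR adjusted p = 3.48e-05). The partner of RPL11, RPL5, had 1439, 1491 and 1448 CPM in treated cells and 1509, 1490.2 and 1515 CPM in DMSO cells, which overlap, and did not pass (log2 fold change -0.044, edgeR adjusted p = 0.182). RPL5 and RPL11 were not tested against each other. RPS27A, which encodes its ribosomal protein fused to ubiquitin and is a source of free ubiquitin, fell with TMM by 0.15 on the log2 scale and did not pass with total counts (edgeR adjusted p = 0.14). The falls that passed with TMM and were lost with total counts numbered 20, the smallest of them -0.070 (RPS24) on the log2 scale, and 14 of them were in the large subunit, among them RPL34, RPL35, RPL38, RPL27A and RPL29 between -0.14 and -0.12. RPL23A and RPS25 were called with overlapping groups.

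The rises included RPLP0 and RPL12 of the ribosomal stalk. The stalk recruits the GTPases that drive translation and consists of RPLP0 with copies of RPLP1 and RPLP2, on a base that includes RPL12. RPLP0 had 3130.2, 3382 and 3249 CPM in treated cells and 2769.8, 2781 and 2838 CPM in DMSO cells, with all treated libraries higher (log2 fold change 0.22, SE 0.029, edgeR adjusted p = 1.62e-07). RPL12 had 859.5, 915 and 879 CPM in treated cells and 696, 689 and 747 CPM in DMSO cells, again with no overlap, and was 1.24-fold higher (log2 fold change 0.31, SE 0.035, edgeR adjusted p = 5.76e-09). For RPLP1 and RPLP2, no rise passed with TMM. RPLP1 had 1479, 1507 and 1440.4 CPM in treated cells and 1379.7, 1389 and 1482 CPM in DMSO cells, which overlap, and did not pass (log2 fold change 0.058, edgeR adjusted p = 0.107). With total counts RPLP1 passed as higher (log2 fold change 0.15, edgeR adjusted p = 0.000105). RPLP2 had 829.6, 828 and 825 CPM in treated cells and 884, 869 and 927 CPM in DMSO cells and fell by 0.11 on the log2 scale with TMM (edgeR adjusted p = 0.00316), but did not pass with total counts (-0.021, edgeR adjusted p = 0.572). The 4 stalk genes were not tested against each other.

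RPL28, a large subunit protein, had 994, 998 and 959 CPM in treated cells and 824, 827 and 878 CPM in DMSO cells (log2 fold change 0.22, SE 0.033, edgeR adjusted p = 8.11e-07). RPL41, a very short and basic peptide, had 385, 397 and 380.4 CPM in treated cells and 335, 340.3 and 338 CPM in DMSO cells (log2 fold change 0.20, SE 0.035, edgeR adjusted p = 1.27e-05). Both were higher in every treated library. RPL13A, known outside the ribosome from interferon-gamma dependent silencing of translation, had 240.1, 245 and 238 CPM in treated cells and 214, 218 and 215 CPM in DMSO cells (log2 fold change 0.16, SE 0.037, edgeR adjusted p = 0.000468). RPL10, which joins late in assembly and is needed before the subunits can pair, had 1694, 1838 and 1795 CPM in treated cells and 1592, 1584 and 1620.2 CPM in DMSO cells (log2 fold change 0.15, SE 0.031, edgeR adjusted p = 9.94e-05). These rises were between 1.11-fold (RPL10) and 1.17-fold (RPL28), and the groups did not overlap for any of the 4 genes. Among the other rises of the large subunit, RPL13 averaged 1132 ± 21.4 CPM in treated cells and 1021 ± 11.6 CPM in DMSO cells (SD, n = 3 each; log2 fold change 0.15) and RPL26 averaged 522 ± 17.8 CPM in treated cells and 480.4 ± 4.72 CPM in DMSO cells (SD, n = 3 each; log2 fold change 0.12). RPL37A passed with overlapping groups, at 531, 563 and 543 CPM in treated cells and 495, 493 and 532 CPM in DMSO cells (log2 fold change 0.11, edgeR adjusted p = 0.0118), and its call was lost without DMSO replicate 1 (adjusted p = 0.0792) and without DMSO replicate 2 (0.0828).

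**Figure D4:**
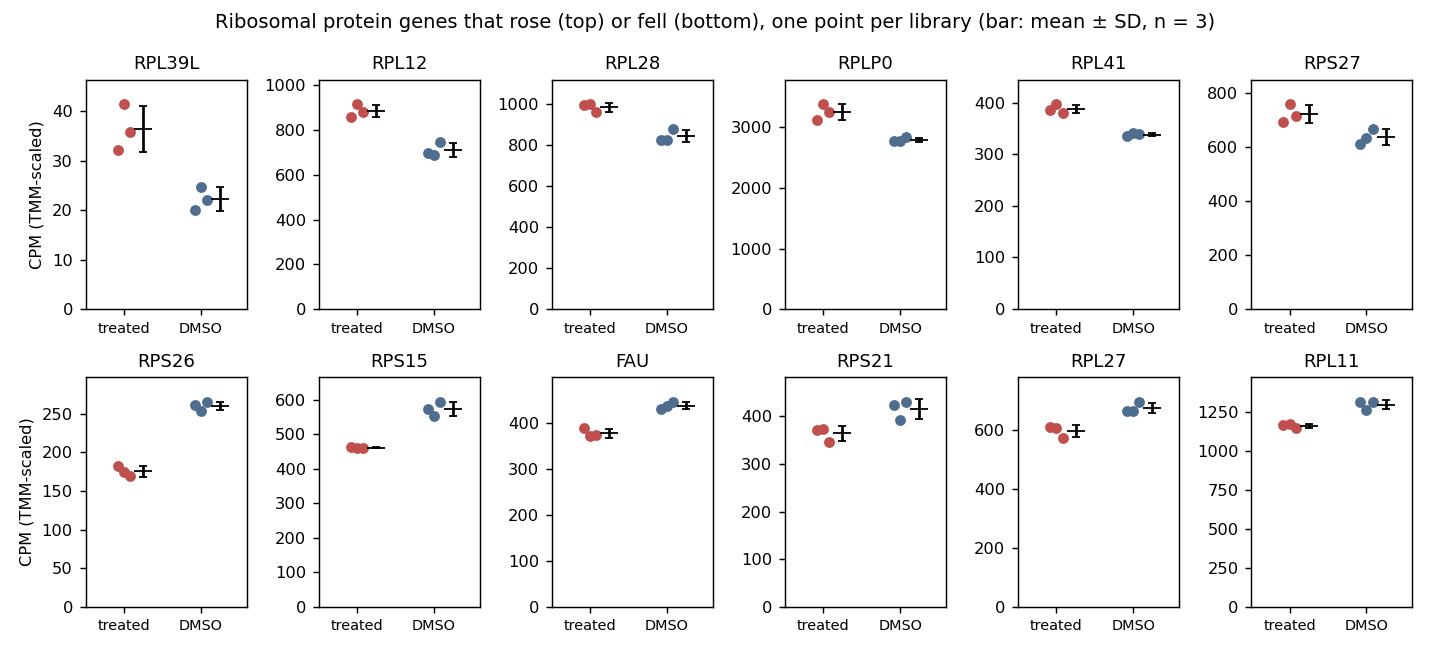
TMM-scaled CPM (y axes from 0) of 12 ribosomal protein genes in each library, with the mean ± SD of 3 libraries. The 6 genes in the upper row rose and the 6 in the lower row fell in treated cells, and in none of the 12 do the groups overlap, as for RPS26 at 169 to 183 CPM in treated and 254 to 265 CPM in DMSO cells.

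In the small subunit no rise exceeded 0.18 on the log2 scale. RPS27, a zinc finger protein of the small subunit, had 693, 759.9 and 717 CPM in treated cells and 612, 634 and 669 CPM in DMSO cells (log2 fold change 0.18, SE 0.037, edgeR adjusted p = 0.000116). RPS18 and RPS2, both among the 5 members of highest mean CPM, rose by 0.15 and 0.11 on the log2 scale. RPS18 averaged 2121 ± 62.7 CPM in treated cells and 1916 ± 41.4 CPM in DMSO cells, and RPS2 averaged 2521 ± 25.5 CPM in treated cells and 2341 ± 93.2 CPM in DMSO cells (SD, n = 3 each). RPS19, the gene most often affected in Diamond-Blackfan anaemia, had 861, 872 and 872 CPM in treated cells and 817, 806 and 820.4 CPM in DMSO cells and rose by 0.092 (SE 0.030, edgeR adjusted p = 0.00942). RPS4X, the X-linked form of RPS4, averaged 1347 ± 14.04 CPM in treated cells and 1267 ± 16.5 CPM in DMSO cells (SD, n = 3 each) and rose by 0.088. The groups did not overlap for any of these 5 small subunit genes. RPS6, the substrate of the S6 kinases, rose by 0.081 (edgeR adjusted p = 0.0165), without overlap at 1336, 1378 and 1358 CPM in treated cells and 1296, 1266 and 1288 CPM in DMSO cells, but the call was lost without treated replicate 3 (adjusted p = 0.0556), without DMSO replicate 2 (0.0793) and without a count filter (0.0694). RPSA, which is also known as a laminin receptor, rose by 0.073 with TMM (edgeR adjusted p = 0.0292) and did not pass relative to the other members (edgeR adjusted p = 0.0552). That call was also lost without DMSO replicate 1 (0.0900), without DMSO replicate 2 (0.103) and without a count filter (0.113).

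Several well-known members showed no change that passed. RPS14, whose loss underlies the anaemia of the 5q- syndrome, had 967, 966 and 940.3 CPM in treated cells and 942, 923 and 964 CPM in DMSO cells (log2 fold change 0.022, edgeR adjusted p = 0.545), and passed as higher with total counts (0.11, edgeR adjusted p = 0.00158). RPL3, which takes part in forming the peptidyl transferase centre, had 1666, 1646 and 1652 CPM in treated cells and 1741, 1668 and 1726 CPM in DMSO cells (log2 fold change -0.049, edgeR adjusted p = 0.138). RPL4, the member with the highest mean CPM after RPLP0, had 2703, 2722 and 2706 CPM in treated cells and 2676, 2715 and 2748 CPM in DMSO cells (log2 fold change -0.0016, edgeR adjusted p = 0.962). With total counts RPL4 passed as higher (0.089, edgeR adjusted p = 0.0038). The groups overlapped for RPS14 and RPL4, while each treated library was below each DMSO library for RPL3. In all, 34 tested members did not pass with TMM, with log2 fold changes from -0.20 (RPL17) to 0.058 (RPLP1), and 14 of them passed as higher with total counts.

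The member with the largest rise was RPL39L, a paralogue of RPL39 that is known from testis and from some cancer cell lines. Its counts were 627, 870 and 764 counts in treated cells and 361, 441 and 488 counts in DMSO cells. These are 32.1, 41.4 and 35.8 CPM in treated cells and 20.02, 24.7 and 22.1 CPM in DMSO cells, so the groups did not overlap and the gene was 1.64-fold higher in treated cells (log2 fold change 0.71, SE 0.090, edgeR adjusted p = 6.35e-08). RPL39, which lines the exit tunnel of the nascent chain, had 172, 167 and 161 CPM in treated cells and 161, 159 and 161 CPM in DMSO cells, which overlap, and did not pass (log2 fold change 0.053, edgeR adjusted p = 0.258), although it passed as higher with total counts (0.14, edgeR adjusted p = 0.0024). Per length of a GENCODE transcript, as TPM, RPL39L stood at 122 ± 16.1 TPM in treated and 69.01 ± 7.53 TPM in DMSO cells, and RPL39 at 1048 ± 30.7 and 935 ± 5.16 TPM (SD, n = 3 each). The paralogue thus remained well below the core gene in both groups. RPL3L, a paralogue of RPL3 known from muscle, had 1, 2 and 1 counts in treated cells and 0, 1 and 1 counts in DMSO cells. RPL10L, a paralogue of RPL10 known from testis, had 1, 0 and 0 counts in treated cells and 0, 0 and 1 counts in DMSO cells. Both were at or under 3 counts in each library and were not tested.

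Paralogues and relatives outside the symbol rule mostly fell. Of 6 listed genes 5 were lower (32.7% of all genes) and RPS27L was higher (33.8%), with the same split under total counts. RPL22L1, the paralogue of RPL22, had 16.5, 17.04 and 15.2 CPM in treated cells and 28.3, 24.1 and 27.04 CPM in DMSO cells, with no overlap, and was 1.63-fold lower (log2 fold change -0.71, SE 0.090, edgeR adjusted p = 7.46e-08). RPL22 itself had 495, 491 and 476 CPM in treated cells and 517, 519 and 533 CPM in DMSO cells and fell by 0.10 with TMM (edgeR adjusted p = 0.00837), a call lost with total counts (0.768), without treated replicate 3 (0.0649) and with only genes of at least 5 CPM (0.0582). RPL36AL, a paralogue of RPL36A, had 96.7, 103 and 100.3 CPM in treated cells and 134, 136 and 134 CPM in DMSO cells (log2 fold change -0.43, SE 0.045, edgeR adjusted p = 1.73e-09). RPL26L1 fell by 0.35 (edgeR adjusted p = 6.09e-05) while RPL26 rose by 0.12 (edgeR adjusted p = 0.00322). RPL7L1, whose protein is related to RPL7, fell by 0.28 on the log2 scale. RPS27L, a paralogue of RPS27 and a known p53 target, had 53.1, 53.5 and 49.1 CPM in treated cells and 46.8, 42.9 and 46.7 CPM in DMSO cells (log2 fold change 0.19, SE 0.063, edgeR adjusted p = 0.00956), and did not pass without DMSO replicate 2 (adjusted p = 0.0620). Differences between a paralogue and its core gene were not tested.

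**Figure D5:**
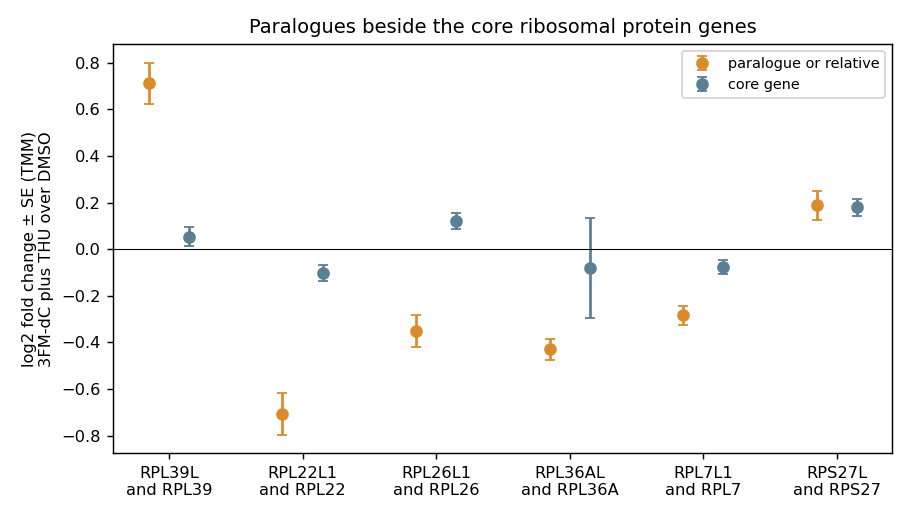
Log2 fold change ± SE with TMM scaling (y axis) of 6 paralogues or relatives and of the matching core ribosomal protein genes (x axis). RPL39L is at 0.71 beside RPL39 at 0.053, RPL22L1 at -0.71 beside RPL22 at -0.10, and RPS27L at 0.19 beside RPS27 at 0.18.

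Not every member could be read from these counts. RPL21 was listed at 0 in all 6 libraries although its protein is part of the cytosolic ribosome. RPL17, RPS10 and RPL36A had low values, at 15.1 to 15.7, 21.8 to 25.4 and 3.14 to 4.45 CPM in treated and 16.0 to 19.4, 23.5 to 31.1 and 3.08 to 4.71 CPM in DMSO cells, and none of the 3 passed. The files also hold read-through symbols that include these genes, RPL17-C18orf32, RPS10-NUDT3 and RPL36A-HNRNPH2, which were at 0 throughout. Reads that overlapped more than 1 gene made up 2.27% to 2.38% of each library and were not assigned. Ribosomal protein genes have many processed pseudogenes with near-identical sequence, and the row for reads aligned at more than 1 place was 0 in every library, while what was done with such reads before counting is not given in the sources used here, so the values of single members are uncertain in level.

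Of 28 pseudogene symbols of ribosomal proteins 8 were tested, and the summed level of all 28 was 62.1 to 66.4 CPM in treated and 59.6 to 65.8 CPM in DMSO cells. RPLP0P2 had 23, 34 and 38 counts in treated cells and 1, 1 and 1 counts in DMSO cells, a ratio of 29.6 on TMM-scaled sums with an exact 95% interval of 9.84 to 146 that covers counting error only. It met the count filter through the treated libraries alone, so its call is not counted. Of the other 7 tested, RPL23AP82 was called higher, with 70, 85 and 73 counts in treated cells and 49, 34 and 51 counts in DMSO cells, and 1 was called lower. RPL23AP53 fell by 0.30 on the log2 scale with TMM, and not with total counts (edgeR adjusted p = 0.0668).

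Other genes whose mRNAs are known to carry a TOP tract were called about as often as all genes. Of 16 listed genes 5 rose (33.8% of all genes), 5 fell (32.7% of all genes) and 6 did not pass, and with total counts 9 rose (40.9% of all genes) and 3 fell (25.8% of all genes). EEF1A1, which delivers aminoacyl-tRNA to the ribosome, had 10432, 10468 and 10316 CPM in treated cells and 8785, 8859 and 8649 CPM in DMSO cells, with no overlap (log2 fold change 0.25, SE 0.023, edgeR adjusted p = 2.67e-10). EEF2, the translocation factor, averaged 4623 ± 30.3 CPM in treated cells and 3841 ± 72.01 CPM in DMSO cells (SD, n = 3 each) and rose by 0.27 on the log2 scale. NPM1, a nucleolar chaperone, averaged 1979 ± 102 CPM in treated cells and 2808 ± 17.2 CPM in DMSO cells and fell (SD, n = 3 each; log2 fold change -0.50, SE 0.031, edgeR adjusted p = 3.40e-14). Of these 16 genes 10 were in the promoter table and 9 had a TOP start.

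Genes that control TOP mRNAs were mostly lower. Of 14 listed genes 11 fell, 2 rose and RPTOR did not pass, against a background of 32.7% lower and 33.8% higher, and with total counts 9 fell (25.8% of all genes) and 3 rose (40.9%). LARP1, the TOP-binding protein, had 496, 442 and 493 CPM in treated cells and 634, 652 and 639.7 CPM in DMSO cells (log2 fold change -0.43, SE 0.038, edgeR adjusted p = 6.92e-11). CNBP, another protein that binds these mRNAs, had 343, 328 and 330.3 CPM in treated cells and 459.5, 446 and 443 CPM in DMSO cells (log2 fold change -0.43, SE 0.035, edgeR adjusted p = 1.10e-11). EIF4E, the cap-binding factor, averaged 70.1 ± 2.59 CPM in treated cells and 103 ± 5.08 CPM in DMSO cells (SD, n = 3 each; log2 fold change -0.56). The exceptions were EIF4EBP1 and EIF4EBP2, which bind EIF4E and block initiation. EIF4EBP1 had 134, 150.0 and 149 CPM in treated cells and 85.2, 84.6 and 90.01 CPM in DMSO cells and was 1.66-fold higher (log2 fold change 0.74, SE 0.050, edgeR adjusted p = 1.82e-13), and EIF4EBP2 rose by 0.44 on the log2 scale.

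Most of the listed chaperones and import factors of ribosomal proteins were lower. Of 15 genes 11 fell (32.7% of all genes), ZNF277 rose (33.8% of all genes) and HEATR3, IPO9 and TNPO1 did not pass, with a median log2 fold change of -0.34 against 0.013 over all genes. With total counts 11 fell (25.8% of all genes) and 2 rose (40.9%). BCCIP, whose yeast counterpart is a chaperone of RPL23, had 123, 104 and 118 CPM in treated cells and 217, 222 and 224 CPM in DMSO cells, 1.92-fold lower (log2 fold change -0.94, SE 0.048, edgeR adjusted p = 3.62e-16). GRWD1, whose yeast counterpart escorts RPL3, had 78.1, 56.8 and 66.4 CPM in treated cells and 133, 119.7 and 127 CPM in DMSO cells (log2 fold change -0.92, SE 0.069, edgeR adjusted p = 2.23e-12). TSR2, the chaperone of RPS26, had 34.1, 40.1 and 32.6 CPM in treated cells and 46.7, 45.3 and 45.96 CPM in DMSO cells (log2 fold change -0.37, SE 0.072, edgeR adjusted p = 5.36e-05). PDCD2L, a partner of RPS2, fell by 0.67 on the log2 scale, while RPS2 rose by 0.11. ZNF277, which also binds RPS2, had 32.1, 34.3 and 34.8 CPM in treated cells and 27.1, 28.9 and 27.7 CPM in DMSO cells (log2 fold change 0.27, SE 0.073, edgeR adjusted p = 0.00151). The lists were small, and their counts describe these genes beside the background of all genes.

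Most of the members' changes were small. Against a minimum fold change of 1.2, RPL39L (edgeR adjusted p = 1.30e-05) and RPS26 (edgeR adjusted p = 1.67e-08) passed and no other member did, while 21.4% of all genes passed as higher and 17.2% as lower (38.6% in either direction). The count of falls with TMM was 17 without treated replicate 3, against 26 with all libraries.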

How the data were processed

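Total RNA of K562 cells was sequenced after preparation with a directional mRNA kit from 1000 ng of RNA, per the labels' protocols. Raw counts of reads, by gene symbol, were deposited library by library. Per the submitters' processing notes, STAR, Cufflinks, DESeq2 and the build hg19 were involved, with no role or version stated. Per the file headers, the rows of unassigned reads carry the names that htseq-count gives them. The version, strand setting and annotation are not stated by any source used here. Each library had 23710 gene symbols and 5 totals of unassigned reads, which were left out. Reads in no annotated feature made up 10.9% to 13.1% and ambiguous reads 2.27% to 2.38% of all deposited counts. A table of the authors' own comparison, with a mean signal of scaled counts, a ratio and p-values, was deposited for group B over group A without naming them, and served only for comparison. Of 79 members in the authors' deposited table, 12 were higher and 26 lower in B at an adjusted p under 0.05. The share called over all its 17783 rows was not computed, so these counts have no background. Of 77 members compared, 75 had the sign of the fit here.

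The main test was the quasi-likelihood F-test in edgeR 4.0.16 (R 4.3.3), with a term for treatment alone, TMM factors and filterByExpr with a minimum count of 10, which kept 12339 genes. Two-sided p-values were Benjamini-Hochberg adjusted over all genes, and errors of log2 fold changes are standard errors (SE). Alternatives were scaling by total counts, by DESeq2 1.42.0 size factors, by TMM without the members and by the members' sum, other count filters, the DESeq2 test, a replicate block, a minimum fold change of 1.2 and leaving out each library. Replicates differed beyond counting noise, with a chi-square per degree of freedom of 2.38 to 6.22, and were kept as separate samples. TPM used the exonic length of 1 GENCODE v29 principal transcript a gene, found for 21159 symbols and for all 81 members, and annotated lengths can exceed the main mRNA. Promoter sequences are from RefSeq. Among tested members the smallest count in a library was 55 (RPL36A), and 76 of 77 had over 100 counts in every library.

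The rule for members goes by symbol, but the gene group and the lists were chosen with earlier results of these data known. Genes were named by a rule that took the 8 largest rises and 8 largest falls among members past the test without overlap, the 5 members with most counts, fixed sets of known members and of relatives, and from each list the gene with the smallest p in each direction. Other genes were named after their values were seen, and a few single-gene results are not reported here.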

Additional observations from a re-analysis of the deposited data

How the results depend on the processing

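Beside the main counts of 17 members higher and 26 lower, total counts gave 31 and 6 (17 and 2 in the large subunit, 14 and 4 in the small), a minimum fold change of 1.2 gave 1 and 1 (1 and 0 in the large, 0 and 1 in the small, with 4765 genes in all), and a filter of at least 5 CPM in 3 libraries gave 20 and 15 (8 lower in the large subunit). The median log2 fold change of members, -0.047 with TMM, was 0.044 with total counts and -0.013 with that filter. Leaving out each library gave 14 to 18 higher and 17 to 33 lower members, 9 to 11 higher and 10 to 20 lower in the large subunit, 5 to 7 higher and 7 to 13 lower in the small one, 7626 to 8091 genes in all and a median of -0.060 to -0.026. The lowest count of falls came without treated replicate 3 (17). Members with a log2 fold change above 0 numbered 28 with TMM and 56 with total counts. Among them, 7 called falls lay above 0 with total counts, none of them past the test, and RPL4, which was near 0 and not called with TMM, passed as higher (log2 fold change 0.089). The share of gene counts, 0.443 percentage points higher in treated cells, differed by 0.00187 points on the TMM-scaled library size, and by 0.355 to 0.519 with a library left out. The ratio of large to small subunit counts differed by -0.00099, by -0.0084 without the most abundant member of each subunit and by -0.0043 to 0.0023 with a library left out. The members' share of TPM was 1.196 points higher in treated cells by exonic length and 0.949 by coding length of the same transcripts, an alternative chosen after seeing the data. The causes of these shifts were not tested.

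DESeq2, its size factors in edgeR and TMM without the members each gave 17 higher and 26 lower. Outside the minimum fold change, 14 rises and 6 falls held in every alternative fit. A replicate block gave 16 higher and 21 lower, with RPSA among the lost calls (edgeR adjusted p = 0.0654). Same-numbered libraries did not deviate together, with correlations of 0.00011, -0.0032 and -0.073, and not every library correlated best with its own number, so the numbers were not taken to pair the samples. Coding length from RefSeq proteins was not run. For the low members RPL36A, RPL17 and RPS10, depth limits what the test can show.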
